A study of Mus musculus with 11 samples.

Results

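The RNA of 7 kidneys was compared here, 4 from MRL/lpr mice given DNase I (DNase) and 3 from untreated C57BL/6J mice (Ctr), out of 11 kidneys sequenced in the study. The members were chosen by their group labels alone, as every DNase and every Ctr library. All mice were female and 21 weeks old, and each library came from the kidney tissue of 1 mouse. MRL/lpr is an inbred strain homozygous for the lpr mutation of Fas, a death receptor gene, and it develops lupus-like autoimmunity with nephritis. The DNase mice received daily intraperitoneal DNase I, an enzyme that cuts extracellular DNA, from week 17 until week 21. The study also sequenced 4 untreated MRL/lpr kidneys (Lpr) of the same age, whose levels are given beside those of the treated kidneys. The treatment was meant to remove neutrophil extracellular traps, the webs of DNA and granule proteins released by neutrophils, and the question addressed here is what still differed from control kidney in treated mice. Ctr and DNase mice differed in strain background, in the Fas mutation with its disease, and in treatment, and these 3 cannot be told apart in this comparison.

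Lupus nephritis begins when antibodies against nuclear antigens and their immune complexes settle in the glomerulus and activate complement. T cells, B cells, plasma cells and macrophages then enter the tissue, where interferons raise the antigen presentation machinery of resident and infiltrating cells. Tubular epithelium answers with injury genes such as Havcr1 and may lose its transport and metabolic genes.

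The 7 libraries held between 33469858 and 38460873 counts each. The log2 count of a gene, set against the mean over libraries, changed by -0.04 to 0.07 per doubling of gene length in these 7 libraries, and by -0.39 in the library of Lpr replicate 3, which therefore stood apart. Chi-square values per degree of freedom between libraries of 1 group lay between 16.5 and 48.8, so none was a repeat of another. Kidney markers were abundant in both groups: Umod, which encodes uromodulin of the thick ascending limb, was counted at 4723 to 4859 CPM (counts scaled to a common library size) in Ctr and 3551 to 5786 CPM in DNase, and Lrp2, encoding the proximal tubule receptor megalin, at 3163 to 3930 and 1783 to 3599 CPM. Fas itself was counted at 7.87, 5.99 and 7.46 CPM in the Ctr kidneys and 6.97, 6.07, 6.46 and 5.77 CPM in the DNase kidneys, so the ranges overlapped and its count did not check the genotype labels. Female-specific Xist was present in every library. Because whole kidneys were measured, fewer cells of a type and less RNA per cell cannot be told apart in any of the values that follow.

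Of 16100 genes tested with edgeR's quasi-likelihood test, 2107 were higher in DNase than in Ctr kidneys at an adjusted p under 0.05, or 13.1% of those tested. Another 1386 were lower, or 8.61%, so that 21.7% of the genes were called in either direction. A log2 fold change above 2 was added to the call for 734 of the higher genes (4.56% of all tested) and 233 of the lower genes (1.45%). Changes of at most 2-fold either way made up 868 of the higher calls (5.39%) and 874 of the lower calls (5.43%), so the excess of higher genes lay among changes of more than 2-fold. When the libraries were scaled by their totals alone, all log2 fold changes moved up by about 0.1 (their median from 0.00 to 0.10), and the share of higher genes among those called went from 60.3% to 73.6%.

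**Figure D1:**
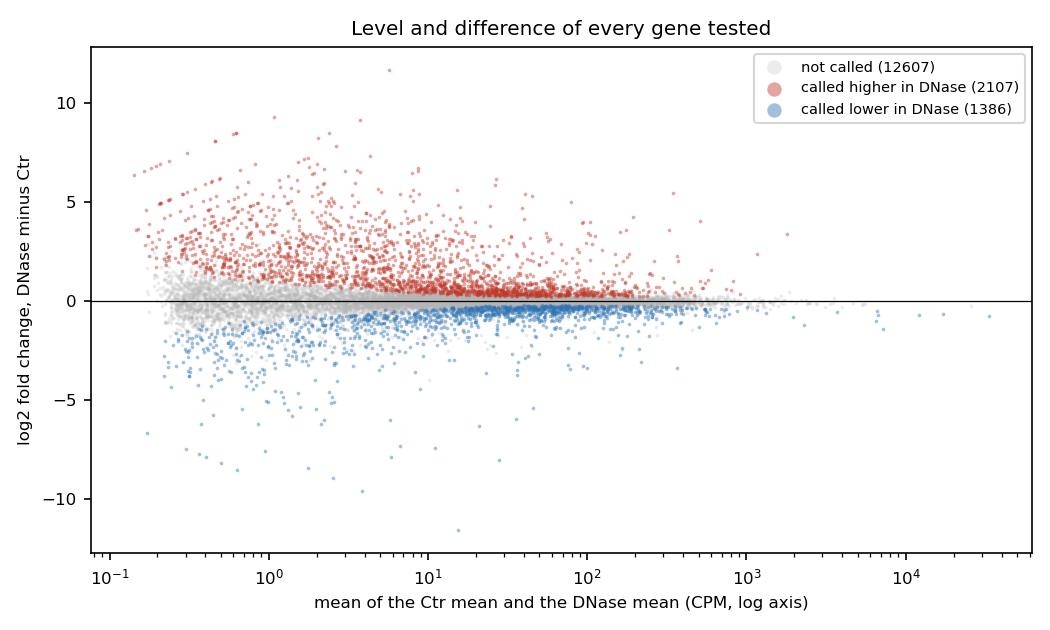
Each point is 1 of the 16100 genes tested, placed by the mean of its Ctr and DNase levels in CPM (log axis) and by its log2 fold change in DNase against Ctr kidneys, coloured by whether it was called at an adjusted p under 0.05 in edgeR. The 2107 higher genes reach further from 0 than most of the 1386 lower genes, and the called points at the far right, the most abundant genes, lie below 0.

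The precision of this comparison sets how small a change it could show. The biological coefficient of variation was 17.9% among the 7 libraries, and the median standard error of a log2 fold change was 0.14. The smallest called change was 0.20 on the log2 scale and the median called change 1.01. For untreated kidneys against the same controls the coefficient of variation was 32%, the median standard error 0.28 and the smallest called change 0.55, with 97 higher and 102 lower genes called at 2-fold or less. Without Lpr replicate 3 those 2 counts were 555 and 609, with a coefficient of variation of 23.3%. The 95% interval of the difference between DNase and Ctr lay within 0.5 on the log2 scale in either direction for 7147 genes (44.4% of those tested), and within 1 for 11270 genes. These intervals, and not a missed p, are what bounds a gene as little changed.

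All 22 tested genes of the T cell receptor complex and its coreceptors were higher in DNase kidneys, their median log2 fold change being 3.40, beside 0.00 over all genes tested. Among all genes tested 13.1% were higher and 8.61% lower. Cd3e, a signalling chain of that complex, was counted at 0.405, 0.51 and 0.419 CPM in the Ctr kidneys and 5.86, 7.397, 8.37 and 7.57 CPM in the DNase kidneys. Cd4, the coreceptor of helper T cells, had 1.48, 0.797 and 1.17 CPM in Ctr and 18.8, 24.9, 26.4 and 24.1 CPM in DNase, a log2 fold change of 4.34 (SE 0.23, adjusted p = 3.95e-06 in edgeR). Cd8a, the coreceptor of cytotoxic T cells, went from 1.35, 1.63 and 1.92 CPM to 27.3, 28.4, 39.1 and 26.4 CPM, a log2 fold change of 4.22 (SE 0.20). For all of these the lowest DNase kidney was well above the highest Ctr kidney. Among checkpoint and regulatory T cell genes, 13 of 16 were higher and 0 lower, with a median of 3.07. They included Lag3, an inhibitory receptor of activated T cells (0.701 to 1.02 CPM in Ctr, 7.14 to 15.6 CPM in DNase), and Tnfrsf4, the costimulatory receptor OX40 (0.0599 to 0.0809 and 1.38 to 1.94 CPM). Of 17 cytotoxic lymphocyte and NK cell genes, 13 were higher and 0 lower. Gzmk, encoding a granzyme, was counted at 0.162, 0.0638 and 0.2098 CPM in Ctr and 3.04, 4.36, 5.52 and 5.59 CPM in DNase, and Eomes, encoding a transcription factor of effector lymphocytes, had a log2 fold change of 3.71 (SE 0.29). The NK receptor gene Klrb1c had 0.0956 to 0.539 CPM in Ctr and 0.108 to 0.529 CPM in DNase, with overlapping ranges and no call.

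B cell and plasma cell genes were higher with more spread between kidneys. Of 16 B cell genes 10 were called higher and 0 lower, with a median of 2.57 on the log2 scale. Of 11 plasma cell genes 8 were higher and 0 lower, with a median of 2.53. The shares of all genes tested were 13.1% higher and 8.61% lower. Cd22, an inhibitory coreceptor of B cells, had 0.378, 0.128 and 0.1199 CPM in Ctr and 4.91, 9.78, 13.7 and 11.5 CPM in DNase, a log2 fold change of 5.52 (SE 0.51, adjusted p = 7.65e-05 in edgeR). Jchain, which joins the units of secreted IgM and dimeric IgA, had 24.8, 7.43 and 13.8 CPM in Ctr and 271, 979, 571 and 872 CPM in DNase, so the treated kidneys themselves differed more than 3-fold. Pou2af1, a B cell coactivator of antibody genes, followed with 0.458, 0.159 and 0.3296 and 7.33, 20.4, 18.3 and 16.9 CPM, and Mzb1, which serves antibody folding, with 1.21, 0.574 and 0.509 and 10.2, 26.9, 25.2 and 27.2 CPM. Genes of lymphoid tissue stroma were higher in 5 of 8 cases and lower in 0, among them Cxcl13, the chemokine that draws B cells into follicles, at 0.647, 0.0319 and 0.479 CPM in Ctr and 15.3, 10.8, 27.1 and 15.3 CPM in DNase.

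Macrophage and monocyte genes were higher for 26 of 29 tested and lower for 0, against 13.1% and 8.61% of all genes. Their median log2 fold change was 2.77. Mpeg1, which encodes a pore-forming protein of macrophages, went from 27.1, 20.3 and 21.8 CPM in the Ctr kidneys to 136, 182, 217 and 162 CPM in the DNase kidneys (log2 fold change 2.92, SE 0.18, adjusted p = 9.63e-06 in edgeR). Ly6c2, a marker of inflammatory monocytes, had 2.24, 1.72 and 1.53 CPM in Ctr and 23.5, 35.8, 29.9 and 34.1 CPM in DNase, although its sequence is 97.9% identical to that of Ly6c1 over most of the reading frame, so reads may be split between them. Cd5l, encoding a secreted protein of tissue macrophages, was at 0.0539, 0 and 0 CPM in Ctr and 5.97, 4.23, 6.56 and 4.43 CPM in DNase. Against a floor of 3 counts per library Cd5l was at least 59.6-fold higher. Marco, a scavenger receptor gene, varied most among treated kidneys, from 1.25 to 4.88 CPM, against at most 0.0599 CPM in Ctr. Of 15 dendritic cell genes 10 were higher and 1 lower: Bst2, the antiviral tetherin of plasmacytoid and other cells, had a log2 fold change of 1.98 (SE 0.15), while Cd209a, a lectin of monocyte-derived dendritic cells, went from 1.62, 0.924 and 1.199 CPM in Ctr to 0.0279, 0.1897, 0.176 and 0.0772 CPM in DNase. Of 19 neutrophil granule and extracellular trap genes, 12 were higher and 0 lower, with a median of 2.02. Of the 12, 11 were higher by more than 4-fold, and log2 fold changes over the list ran from -0.69 to 6.49. Called members were named by the smallest p alone, so those named do not describe the other called members. The called ones named here were genes that other phagocytes also use: Cybb, the catalytic subunit of the phagocyte oxidase (12.1, 9.595 and 8.99 CPM in Ctr, 50.5, 78, 79.2 and 71.7 CPM in DNase), and Itgb2, the shared beta chain of leukocyte integrins (5.42 to 6.903 and 39.99 to 80.8 CPM). Retnlg, which is made by neutrophils, was named as the member with the largest spread among DNase kidneys. It had 0.02997 to 0.216 CPM in Ctr and 0.0558 to 0.623 CPM in DNase and was not called. Padi4, whose enzyme citrullinates histones when traps form, was too low to be tested, at 0.108, 0.159 and 0 CPM in Ctr and 0.223, 0.786, 0.227 and 0.489 CPM in DNase.

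All 11 tested genes of MHC class II and its invariant chain were higher, against 13.1% of all genes, with a median log2 fold change of 2.27. Cd74, the invariant chain, was counted at 336, 304 and 312 CPM in Ctr and 2725, 3415, 3177 and 3860 CPM in DNase (log2 fold change 3.38, SE 0.15, adjusted p = 1.59e-06 in edgeR). Ciita, the master regulator of class II transcription, had 6.12, 7.46 and 4.88 CPM in Ctr and 54.4, 65.97, 57.5 and 62.8 CPM in DNase. H2-DMb2, a chain of the peptide exchange factor DM, rose from 1.699, 2.104 and 1.86 CPM to 72.8, 82.4, 76.99 and 85.7 CPM, while H2-DMb1, 96.0% identical in its reading frame, had a log2 fold change of 1.31, so the share of reads that belongs to each is uncertain. Of 19 genes of MHC class I, the immunoproteasome and peptide loading, 16 were higher and 2 lower. The lower count was near the 8.61% of all genes. B2m, the class I light chain, went from 382, 374 and 385 CPM to 1825, 2057, 1824 and 2101 CPM, and Psmb8, a catalytic subunit of the immunoproteasome, from 19.4, 21.2 and 14.9 CPM to 158, 175, 218 and 204 CPM. The 2 lower genes were the non-classical class I genes H2-Q7 (3.32, 4.56 and 4.67 CPM in Ctr, 0.0558, 0, 0.0252 and 0.129 CPM in DNase) and H2-Q6 (4.15, 5.005 and 3.63 and 1.87, 0.433, 0.176 and 0.3605 CPM), which are 96.1% identical to each other. H2-Q1, another class I gene of this region (chr17:35320405-35325099, GRCm38), was among the largest increases, at 0.108, 0.223 and 0.1498 CPM in Ctr and 15.7, 15.2, 17.9 and 19.6 CPM in DNase. The strains carry different H2 haplotypes, so differences in sequence and in expression cannot be told apart for single H2 genes.

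Interferon-stimulated genes were higher for 41 of 46 tested and lower for 1, against 13.1% and 8.61% of all genes. Their median log2 fold change was 1.02, but the sizes fell into a wide range. With all 11 libraries in 1 fit the counts were 23 higher and 0 lower. The promoters of 3 of the strongly raised genes are shown: Tgtp1, Igtp and Gbp2, with log2 fold changes of 4.01, 3.60 and 3.51. The largest log2 fold change in the list was 4.23, in a gene whose promoter is not shown. Letters to which interferon-activated factors bind are marked in the sequences. Type I and type II interferons act through factors that bind the gamma-activated site, here TTCNNNGAA, and through IRF and ISGF3 factors, which recognise a pair of GAAA with 2 free bases between them, here called the IRF repeat. The 250 bases upstream of the start site (RefSeq, GRCm38.p6) read 5′ to 3′ on the gene's strand, with matches to either motif on either strand in capitals. They lie at chr11:48992247-48992496 for Tgtp1, chr11:58199306-58199555 for Igtp and chr3:142620413-142620662 for Gbp2, on the minus, plus and plus strand.
Tgtp1: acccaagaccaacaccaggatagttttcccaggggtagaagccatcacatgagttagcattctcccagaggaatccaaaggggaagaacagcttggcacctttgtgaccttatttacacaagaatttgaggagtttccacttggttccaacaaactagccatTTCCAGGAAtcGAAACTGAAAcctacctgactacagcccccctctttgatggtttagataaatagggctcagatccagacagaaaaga
Igtp: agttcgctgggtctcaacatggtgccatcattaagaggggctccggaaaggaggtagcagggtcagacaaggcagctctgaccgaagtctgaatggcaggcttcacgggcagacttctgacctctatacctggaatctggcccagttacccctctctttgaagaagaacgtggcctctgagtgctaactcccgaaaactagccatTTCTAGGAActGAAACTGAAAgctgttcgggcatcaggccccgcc
Gbp2: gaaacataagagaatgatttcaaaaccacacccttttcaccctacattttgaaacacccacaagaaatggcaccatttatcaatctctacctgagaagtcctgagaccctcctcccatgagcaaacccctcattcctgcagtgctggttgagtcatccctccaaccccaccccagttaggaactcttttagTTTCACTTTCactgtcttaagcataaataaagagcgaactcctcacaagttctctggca
Tgtp1 and Igtp each held 1 match to both motifs, and Gbp2 held 1 match to the IRF repeat, on the opposite strand, and 0 to TTCNNNGAA. Among all 27025 promoters listed 3.46% held the IRF repeat and 8.13% held TTCNNNGAA in this window, and among the tested genes 3.31% and 7.44%. Among 34 interferon-stimulated genes with a listed promoter, 17 held the first and 11 the second.

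A guanylate-binding protein (GBP) and immunity-related GTPase (IRG) set and a set of IFIT, OAS, MX, ISG15 and RSAD2 genes were set apart after the values were seen, so their contrast is a description. Of the members printed below, Igtp, Tgtp1, Isg15 and Ifit1 were also chosen after their values were seen. GBP and IRG genes encode GTPases that attack the vacuoles of intracellular pathogens. Of 21 such genes 20 were higher and 0 lower, against 13.1% and 8.61% of all genes, with a median log2 fold change of 3.29. Gbp2 was counted at 23.8, 34.3 and 19.4 CPM in the Ctr kidneys and 289, 297, 288 and 299 CPM in the DNase kidneys, a log2 fold change of 3.51 (SE 0.18, adjusted p = 3.95e-06 in edgeR). Igtp followed with 20.8, 39.9 and 20.1 CPM in Ctr and 331, 323, 336 and 309 CPM in DNase, and Tgtp1, which shares 99.7% of its reading frame with Tgtp2, with 9.22, 19.99 and 7.52 and 204, 204, 180.4 and 196 CPM. The treated kidneys stood close together, with a summed level over the 21 genes of 2303 to 2467 CPM, against 247 to 369.8 CPM in Ctr and 1367 to 6322 CPM in untreated Lpr kidneys. The 1367 CPM belonged to Lpr replicate 3, the library that stood apart by gene length, and the other Lpr kidneys held 2882, 4634 and 6322 CPM, all above the highest DNase kidney. The summed level was not tested between DNase and Lpr kidneys. Gene by gene, the direct test of these groups called 0 genes, with or without Lpr replicate 3. Irf1, an early interferon-gamma target, went from 26.1, 27.1 and 26.4 CPM in Ctr to 108, 109, 131 and 106 CPM in DNase.

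The IFIT, OAS, MX, ISG15 and RSAD2 genes encode direct antiviral effectors and are commonly read as a type I interferon signature. Of 16 tested, 11 were higher and 1 lower, against 13.1% and 8.61% of all genes. The median log2 fold change was 0.81, with a summed level of 112 to 146 CPM in Ctr and 142 to 180.0 CPM in DNase. The number higher was 1 with all 11 libraries in 1 fit, 4 with 10 libraries in 1 fit and 4 with the replicate number as a block. Isg15, a ubiquitin-like modifier, had 7.55, 5.36 and 5.51 CPM in Ctr and 10.4, 7.88, 15.2 and 10.1 CPM in DNase, a log2 fold change of 0.82 (SE 0.23, adjusted p = 0.0322 in edgeR). That call ended without Ctr replicate 2, Ctr replicate 3, DNase replicate 3 or DNase replicate 4, with an adjusted p of at most 0.103. Ifit1, which binds foreign RNA, had 6.85, 7.43 and 7.37 CPM in Ctr and 13.1, 10.4, 10.8 and 9.81 CPM in DNase (log2 fold change 0.61, SE 0.13). The higher genes of this set with the smallest p, Oas1a, Oas3 and Oasl2, kept their calls with any 1 library left out. Their log2 fold changes in those fits were 0.91 to 1.26, 1.39 to 1.86 and 0.71 to 0.92. Rsad2, encoding viperin, was the lower gene, at 36.2, 26.1 and 27.3 CPM in Ctr and 19.97, 19.3, 14.98 and 15.7 CPM in DNase (log2 fold change -0.77, SE 0.15, adjusted p = 0.00492 in edgeR). In the untreated Lpr kidneys Ifit1 reached 12.8 to 43.8 CPM and Isg15 12.4 to 28.01 CPM. Of 12 GBP and IRG promoters listed, 91.7% held the IRF repeat and 58.3% held TTCNNNGAA, and of 14 promoters of the IFIT and OAS set 78.6% and 14.3% did.

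**Figure D2:**
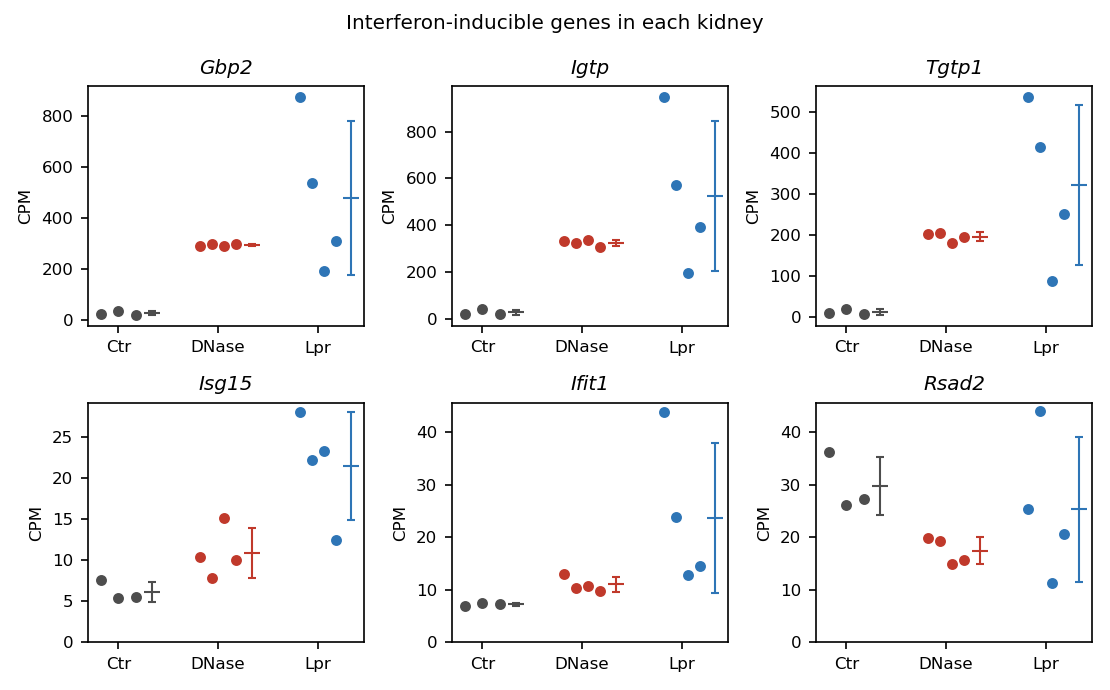
Levels in CPM of 6 interferon-inducible genes in each Ctr (grey), DNase (red) and Lpr (blue) kidney, with the group mean and SD to the right of the points. The 4 DNase kidneys lie close together and far above Ctr for Gbp2, Igtp and Tgtp1, slightly above for Isg15 and Ifit1, and below for Rsad2. Igtp, Tgtp1, Isg15 and Ifit1 were chosen after their values were seen.

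Chemokine ligands were higher for 15 of 28 tested and lower for 2, and chemokine receptors were higher for 13 of 16 and lower for 0. Over all genes tested 13.1% were higher and 8.61% lower. Cxcl9, which attracts activated T cells in response to interferon-gamma, was counted at 4.34, 5.005 and 3.57 CPM in Ctr and 48.8, 67.8, 102 and 82.7 CPM in DNase (log2 fold change 4.13, SE 0.27, adjusted p = 1.22e-05 in edgeR). Ccl5, another T cell attractant, went from 3.02, 1.85 and 2.04 CPM to 19.7, 24.2, 34.3 and 30.6 CPM. Ccl28, a mucosal epithelial chemokine, was one of the 2 lower ligands, at 6.53, 6.44 and 35.4 CPM in Ctr and 1.76, 3.39, 0.807 and 3.55 CPM in DNase, and its call ended without Ctr replicate 3 (adjusted p = 0.0747 in edgeR). The number of lower ligands was 1 without Ctr replicate 2 or 3 and without DNase replicate 1, 2 or 4. Leukocyte adhesion genes were higher for 13 of 17 and lower for 0. Itgal, the alpha chain of the lymphocyte integrin LFA-1, had 4.21, 2.87 and 3.45 CPM in Ctr and 25.7, 40.1, 34.9 and 35.2 CPM in DNase, and Vcam1, an adhesion molecule of activated endothelium and injured tubule, had 14.2, 15.1 and 12.8 CPM in Ctr and 60.5, 94.8, 69.5 and 80.4 CPM in DNase. Selp, the P-selectin of activated platelets and endothelium, was not called, with 0.223 to 0.917 CPM in Ctr and 0.3904 to 1.52 CPM in DNase.

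Complement genes were higher for 10 of 23 and lower for 1, or for 2 without Ctr replicate 2, with a median log2 fold change of 0.43. Over all genes tested 13.1% were higher and 8.61% lower. C4b, the fourth component of the classical pathway, rose from 12.5, 8.45 and 6.41 CPM in Ctr to 113, 117, 78.6 and 96.3 CPM in DNase (log2 fold change 3.47, SE 0.24, adjusted p = 1.55e-05 in edgeR). Its reading frame is 96.0% identical to C4a, which was not among the tested genes, so its count is uncertain. Cfp, encoding properdin, which stabilises the alternative convertase, had 2.99, 2.17 and 4.38 CPM in Ctr and 12.2, 18.7, 23.5 and 20.8 CPM in DNase. Cd59a, which blocks the membrane attack complex on host cells, was the lower member, at 57.5, 45.1 and 56.4 CPM in Ctr and 36.5, 29.1, 31.8 and 32.01 CPM in DNase. Among Toll-like receptor and NF-kappaB pathway genes 19 of 35 were higher and 2 lower, the lower count being below the share of all genes. Tlr1 and Tlr8, receptors for bacterial lipopeptides and for RNA, had log2 fold changes of 3.40 (SE 0.23) and 4.36 (SE 0.36). The 2 lower genes encode the catalytic kinases of the pathway, Chuk (158, 162 and 138 CPM in Ctr, 94.8, 98.8, 93.3 and 101 CPM in DNase) and Ikbkb (66.98, 76.3 and 69.1 and 49.8, 55.1, 53.5 and 54.97 CPM), with log2 fold changes of -0.65 and -0.41.

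Of the kidney transcripts chosen for RT-PCR in the study, 15 were listed here, without IL-8, for which mice have no gene of that name. Of these 12 could be tested, with 8 higher and 2 lower, against 13.1% and 8.61% of all genes. The study picked these genes for mice of this experiment, so their count is no independent evidence of a direction. Ccl2, which recruits monocytes, had 0.998, 0.924 and 0.539 CPM in Ctr and 4.04, 6.56, 5.29 and 6.98 CPM in DNase (log2 fold change 2.80, SE 0.30, adjusted p = 0.000177 in edgeR). Il1b, a cytokine of inflammasome activation, had 1.67, 1.05 and 1.56 and 18.8, 6.72, 10.7 and 9.22 CPM, and Nos2, the inducible nitric oxide synthase, 1.08, 0.861 and 0.719 and 4.94, 5.61, 8.72 and 5.098 CPM. Tnf was higher but low, at 0.162, 0.191 and 0.1798 CPM in Ctr and 0.307, 0.759, 1.61 and 0.8497 CPM in DNase. Tlr4, the endotoxin receptor, and Myd88, its adaptor, had small increases of 0.80 (SE 0.23) and 0.35 (SE 0.0849) on the log2 scale, and Bcl2, which blocks apoptosis, of 0.42 (SE 0.0976). The calls of Tnf, Tlr4 and Myd88 each ended when Ctr replicate 1 was left out, with Tnf also lost without Ctr replicate 3 and Tlr4 without any 1 DNase library. Casp9, an initiator caspase, was lower at 39.02, 33.9 and 37.4 CPM in Ctr and 25.8, 22.5, 24.9 and 25.6 CPM in DNase, as was Hmgb1, a chromatin protein released from dying cells, at 92.05, 81.4 and 79.7 and 58.98, 58.2, 62.4 and 66.2 CPM. Hmgb1 has 39 near-identical copies in the annotation, so its count is uncertain. Bax, which opens the mitochondrial membrane in apoptosis, was not called (log2 fold change 0.20, 95% interval -0.10 to 0.50), and Il6 was listed at 0 in all 3 Ctr kidneys and at no more than 0.217 CPM in DNase.

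**Figure D3:**
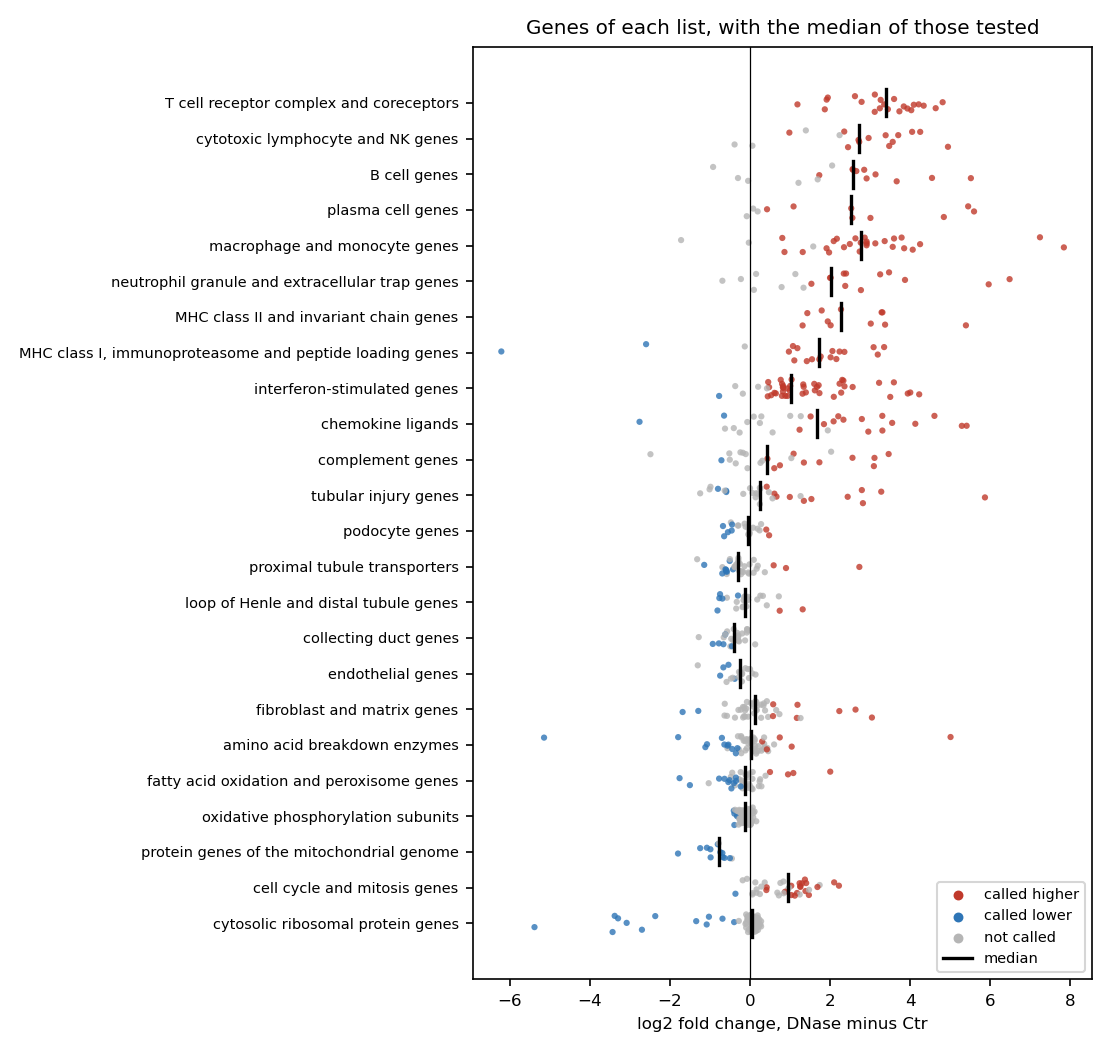
Log2 fold change of every tested gene in 24 lists (1 point per gene, spread vertically within its row), with the median as a black bar and colours for genes called higher or lower in DNase than in Ctr kidneys. The immune lists at the top lie to the right of 0, the nephron and metabolic lists lie around or just left of 0, and the mitochondrial genome list lies wholly to the left.

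Genes of tubular injury were mixed. Of 30 tested 11 were higher and 3 lower, against 13.1% and 8.61% of all genes, with a median log2 fold change of 0.25. The lower count was near the share of all genes. Havcr1, which encodes the injury molecule KIM-1 of proximal tubule (chr11:46735080-46779578, GRCm38), was counted at 0.485, 0.51 and 1.65 CPM in Ctr and 32.02, 72.7, 25.4 and 76.3 CPM in DNase, a log2 fold change of 5.87 (SE 0.60, adjusted p = 0.000142 in edgeR). All treated kidneys were far above the highest control, and the untreated Lpr kidneys held 116, 91.5, 281 and 44.6 CPM. Serpina10, a liver-type protease inhibitor listed with injury genes, went from 1.81, 1.31 and 1.47 CPM to 11.7, 18.8, 12.3 and 16.9 CPM. Clu, encoding the chaperone clusterin, was lower at 421, 488 and 483 CPM in Ctr and 298, 315, 330.4 and 287 CPM in DNase (log2 fold change -0.59, SE 0.0892), and S100a11, a calcium-binding protein gene, at 140.1, 105 and 178 and 76.6, 81.1, 79.4 and 86.9 CPM. The number of lower injury genes was 6 without Ctr replicate 2. Krt20, an injury keratin, spread from 0.139 to 1.52 CPM in DNase and 0.255 to 2.397 CPM in Ctr and was not called.

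Podocyte genes were mostly not called, with 2 of 21 higher and 5 lower, against 13.1% and 8.61% of all genes, and a median log2 fold change of -0.05, which was 0.05 when libraries were scaled by their totals alone. Wt1, a transcription factor of podocyte identity, was lower at 19.2, 19.9 and 19.5 CPM in Ctr and 12.6, 11.1, 13.6 and 11.5 CPM in DNase, a log2 fold change of -0.68 (SE 0.10, adjusted p = 0.00131, edgeR). Dach1, another podocyte nuclear factor, was lower by a similar step (-0.55, SE 0.098), and Podxl, encoding podocalyxin, had 404 to 469 CPM in Ctr and 303 to 386 CPM in DNase without a call (-0.30, 95% interval -0.53 to -0.08). The number of lower genes was 2 without Ctr replicate 1, 3 without Ctr replicate 3 and 3 without DNase replicate 4, and the number of higher genes was 1 without Ctr replicate 1 or 3. Of 21 endothelial genes 0 were higher and 4 lower, with a median of -0.25. Sox17, an arterial transcription factor, was one, at 10.7, 10.4 and 12.6 CPM in Ctr and 7.06, 6.45, 8.25 and 5.05 CPM in DNase, a call that ended without Ctr replicate 3. The endothelial count rested on single libraries: it was 1 without Ctr replicate 1, Ctr replicate 3 or DNase replicate 4, 2 without DNase replicate 2, and 7 without DNase replicate 1.

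Proximal tubule transporters were lower for 8 of 38 tested, against 8.61% of all genes, and higher for 3, with a median log2 fold change of -0.29. Slc22a19, an organic anion transporter gene, was counted at 259, 265 and 235 CPM in Ctr and 87.7, 136, 97.97 and 136 CPM in DNase (log2 fold change -1.15, SE 0.16, adjusted p = 0.000828 in edgeR). Slc22a2, encoding the organic cation transporter OCT2, had 189, 180.1 and 195 CPM in Ctr and 101, 139, 123 and 133 CPM in DNase. The most abundant markers moved less: Slc34a1, the main phosphate transporter, had 4165, 4705 and 4314 CPM in Ctr and 3776, 3795, 3018 and 3697 CPM in DNase, with a log2 fold change of -0.30 and a 95% interval of -0.56 to -0.04, and was not called. Slc7a13, an amino acid transporter of the late proximal tubule, was higher at 0.755, 0.351 and 0.749 CPM in Ctr and 3.51, 3.93, 3.96 and 5.23 CPM in DNase (log2 fold change 2.73, SE 0.31). The number of lower transporters was 3 without Ctr replicate 1 and 5 without DNase replicate 4, and the number of higher ones was 1 without Ctr replicate 1 and without DNase replicate 1, 2 or 4.

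Among 25 genes of the loop of Henle and distal tubule, 5 were lower and 2 higher, against 8.61% of all genes that were lower, and the lower ones named here belong to the distal convoluted and connecting tubule. Slc12a3, the thiazide-sensitive sodium chloride cotransporter, was counted at 801, 837 and 698 CPM in Ctr and 537, 515, 459.5 and 417 CPM in DNase, a log2 fold change of -0.69 (SE 0.11, adjusted p = 0.00174 in edgeR). Trpm6, the magnesium channel of that segment, had 18.5, 22.9 and 19.96 CPM in Ctr and 12.3, 11.9, 12.2 and 10.2 CPM in DNase (-0.81, SE 0.11), and Klhl3, which targets the kinases of the cotransporter for degradation, had 77.5, 81.8 and 68.1 and 47.02, 44.9, 46.9 and 41.5 CPM (-0.75, SE 0.0827). Trpv5, the calcium channel of the distal nephron, fell from 25.9, 30.9 and 30.2 CPM to 21.9, 15.1, 17.3 and 13.98 CPM. It was chosen after its values were seen. Pvalb, encoding the calcium-binding parvalbumin of the early distal convoluted tubule and of fast muscle, went the other way, from 21.3, 26.7 and 22.9 CPM in Ctr to 61.7, 47.9, 70.2 and 55.6 CPM in DNase (1.32, SE 0.14, adjusted p = 0.000154 in edgeR). The other higher gene was Cldn16, a tight junction protein gene of the thick ascending limb (15.7, 12.7 and 13.5 and 20.7, 20.5, 29.3 and 22.9 CPM). Slc12a1, the cotransporter of that limb, was not called (0.18, 95% interval -0.18 to 0.54). Without DNase replicate 1 the number of lower genes was 8. In the collecting duct 5 of 25 genes were lower and 0 higher, led by Rhcg, an ammonia transporter gene, at 135, 149 and 121 CPM in Ctr and 81.1, 63.5, 84.7 and 53.8 CPM in DNase. Slc26a4, the pendrin exchanger of intercalated cells, had 76.2, 103 and 81.4 and 61.3, 52.7, 66.8 and 45.6 CPM. Aqp2, the water channel of principal cells, was spread from 176 to 682 CPM in Ctr and from 228 to 655 CPM in DNase and was not called. The collecting duct count was 9 without DNase replicate 1 and 2 without Ctr replicate 2, Ctr replicate 3, DNase replicate 2 or DNase replicate 4.

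The protein genes of the mitochondrial genome were lower as a block, a list that was put together after the values were seen. Of 13 tested 11 were lower and 0 higher, against 8.61% and 13.1% of all genes, with a median log2 fold change of -0.78. Their summed level was 94720 to 110500 CPM in Ctr and 58940 to 71840 CPM in DNase. COX1, a core subunit of cytochrome oxidase, was counted at 39860, 44690 and 41080 CPM in the Ctr kidneys and 29140, 23460, 24430 and 23240 CPM in the DNase kidneys, a log2 fold change of -0.74 (SE 0.14, adjusted p = 0.00445 in edgeR). CYTB, the cytochrome b of complex III, had 19690, 21610 and 20920 CPM in Ctr and 15580, 12070, 13590 and 12090 CPM in DNase, and ND5, a complex I subunit gene, had 6989, 9141 and 9952 and 3881, 4698, 4569 and 4421 CPM. ND3, another complex I subunit gene, showed the largest step, from 26.9, 31.1 and 24.3 CPM to 7.17, 6.99, 10.01 and 7.29 CPM (-1.80, SE 0.15). COX2 and COX3 were not called. On the scale of the deposited FPKM, which is per length, the Ctr mean was 26130 for COX1 but 296 for COX2, 421 for COX3 and 75.8 for ND3, and how completely each of these genes was counted was not tested. The summed level in the untreated Lpr kidneys was 37890 to 65980 CPM. Without Ctr replicate 2 the number of lower genes was 7, and it was 4 with all 11 libraries in 1 fit.

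The subunits of the same complexes that are encoded in the nucleus did not show a step of that size. Of 71 such genes 4 were lower and 0 higher, with a median log2 fold change of -0.13. Cox7c, a small subunit of cytochrome oxidase, was one of them, at 376, 356 and 333 CPM in Ctr and 254, 243, 299 and 275 CPM in DNase (-0.41, SE 0.0927, adjusted p = 0.0126 in edgeR), and the complex I genes Ndufa12 (-0.39, SE 0.0928) and Ndufa13 (-0.39, SE 0.0941) were also called. The share lower was below the 8.61% of all genes, and the calls ended without Ctr replicate 1 (Cox7c, Ndufa13) or Ctr replicate 3 (Ndufa12). The nuclear count was 1 without Ctr replicate 1, 2 without Ctr replicate 3 and 11 without DNase replicate 3. Leaving the mitochondrial genome genes out before the fit, an alternative chosen after seeing the data, gave 2094 higher and 1401 lower genes in all.

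**Figure D4:**
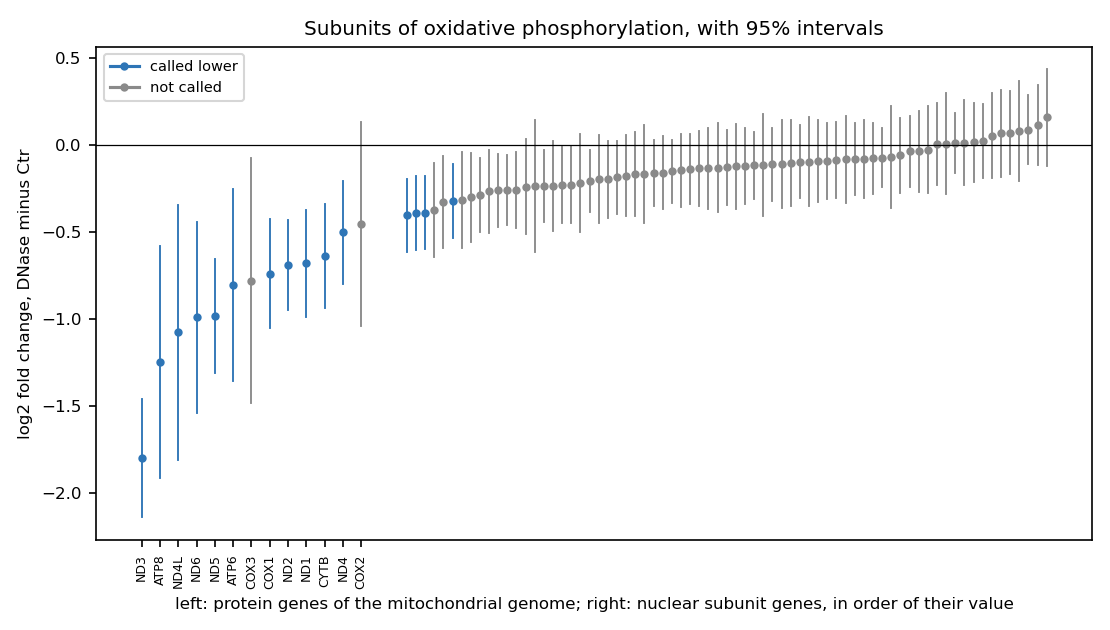
Log2 fold change (points) with its 95% interval (lines) for the 13 protein genes of the mitochondrial genome, named on the left, and for 71 nuclear subunit genes of oxidative phosphorylation on the right, ordered by value. Blue marks genes called lower in DNase than in Ctr kidneys, which are 11 of the 13 and 4 of the 71.

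Enzymes of amino acid breakdown were lower for 11 of 50 and higher for 5, against 8.61% and 13.1% of all genes. The histidine pathway showed steps in opposite directions: Hal, which removes ammonia from histidine, was counted at 0.297, 0.0956 and 0.2397 CPM in Ctr and 3.402, 8.86, 7.06 and 8.76 CPM in DNase (5.01, SE 0.48), while Uroc1, the next enzyme, had 83.6, 85.9 and 52.7 CPM in Ctr and 21.6, 17.6, 28.7 and 17.3 CPM in DNase (-1.80, SE 0.21, adjusted p = 0.000311 in edgeR). Amdhd1, the third enzyme of that pathway, went from 5.29, 4.56 and 4.55 CPM to 0, 0.244, 0.176 and 0.103 CPM (-5.15, SE 0.52). Hal and Amdhd1 were named by rule, while Uroc1 was chosen after its values were seen. Hal lies at chr10:93488768-93519304 and Amdhd1 beside it at chr10:93523338-93540033 (GRCm38), so neighbours on the chromosome moved in opposite directions. Sardh, the mitochondrial sarcosine dehydrogenase, fell from 555, 574 and 435 CPM to 223, 237, 246 and 255 CPM, and Gldc, the glycine cleavage enzyme, from 196, 195 and 247 CPM to 95.6, 101, 106 and 102 CPM. Bckdhb, a subunit of branched-chain keto acid dehydrogenase, was higher at 36.2, 39.7 and 37.5 CPM in Ctr and 87.9, 62.9, 87.02 and 73.7 CPM in DNase. The number of higher enzymes ranged from 3 without DNase replicate 3 or 4 to 8 without Ctr replicate 2 and 9 without DNase replicate 1.

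Fatty acid oxidation and peroxisome genes were lower for 11 of 44 and higher for 4, against 8.61% and 13.1% of all genes. Their median log2 fold change was -0.12, and the share higher was below that of all genes. Acsm1, which activates medium-chain fatty acids, was counted at 339.7, 304 and 286 CPM in Ctr and 94.9, 125, 82.5 and 134 CPM in DNase (-1.50, SE 0.16, adjusted p = 2e-04 in edgeR), and Acot12, an acetyl-CoA hydrolase gene, at 128, 113 and 98.98 and 54.6, 67.9, 61.2 and 81.7 CPM. Acaa1a, the peroxisomal thiolase, was higher at 131, 123 and 102 CPM in Ctr and 170.2, 204, 269 and 272 CPM in DNase, as was Cyp4b1, a monooxygenase listed with this group, at 130.3, 238 and 80.5 and 514, 632, 616 and 633 CPM. The lower count was 7 without Ctr replicate 1 or 2, and the higher count was 2 without Ctr replicate 3. Cytochrome P450 and conjugation enzymes were about evenly divided, with 9 of 55 higher and 8 lower, against 13.1% and 8.61% of all genes. Cyp4a12a, a fatty acid hydroxylase known for its androgen-driven expression in kidney, was at 1.699, 2.23 and 1.05 CPM in Ctr and 24.04, 52.3, 55.6 and 56.4 CPM in DNase, with a log2 fold change of 4.83 (SE 0.38). Its neighbour in sequence, Cyp4a12b, is 98.6% identical. Sult1c2, a sulfotransferase gene, rose from 89.1, 87.6 and 84.7 CPM to 209, 228, 223 and 258 CPM, and Gsta2, a glutathione transferase gene with 3 near-identical copies, was lower at 589.9, 549 and 451 and 246, 223, 275 and 262 CPM.

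Among 28 glycolysis and gluconeogenesis enzymes 3 were higher and 6 lower, against 13.1% and 8.61% of all genes. These calls include Eno1 and Eno1b, a near-identical pair given below, and another lower enzyme has 70 near-identical copies. The directions of those calls are uncertain. Pck1, which commits carbon to gluconeogenesis in proximal tubule, was counted at 3406, 2547 and 3708 CPM in Ctr and 1437, 1168, 1617 and 1330 CPM in DNase (-1.22, SE 0.15, adjusted p = 0.000497 in edgeR), and Hk3, a hexokinase of leukocytes, rose from 1.02, 0.797 and 0.479 CPM to 8.73, 8.59, 17.6 and 7.54 CPM. Of 24 cholesterol synthesis enzymes, set against the same shares, 5 were lower and 1 higher. Sqle, the squalene epoxidase, had 58.97, 61.3 and 62.4 CPM in Ctr and 39.8, 46.1, 38.03 and 41.7 CPM in DNase (-0.56, SE 0.0826). The 1 higher enzyme was Mvk, mevalonate kinase, whose call (adjusted p = 0.0479 in edgeR) ended without Ctr replicate 2 or 3 and without DNase replicate 2, 3 or 4.

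Cell cycle and mitosis genes were higher for 18 of 40 and lower for 1, with a median log2 fold change of 0.94. Over all genes tested 13.1% were higher and 8.61% lower. Aurkb, a kinase of chromosome segregation, went from 0.539, 0.351 and 0.419 CPM in Ctr to 1.701, 1.46, 2.597 and 2.47 CPM in DNase (2.22, SE 0.33), and Mcm3, a subunit of the replicative helicase, from 5.18, 4.46 and 5.75 CPM to 9.65, 10.2, 11.8 and 10.4 CPM (1.03, SE 0.14, adjusted p = 0.00087 in edgeR). The 1 lower gene was Tyms, thymidylate synthase, at 20.8, 21.6 and 18.5 and 14.8, 14.9, 17.02 and 16.3 CPM, whose call ended without Ctr replicate 1 or 2 and without DNase replicate 1, 2 or 4. Unfolded protein response genes were higher for 11 of 27 and lower for 1. Creld2, a chaperone gene of the secretory pathway, had 22.3, 22.2 and 19.6 CPM in Ctr and 37.6, 39.6, 45.5 and 38.8 CPM in DNase, while Asns, the asparagine synthetase of the ATF4 branch, was lower at 10.7, 20.4 and 17.1 and 6.61, 6.94, 5.85 and 6.51 CPM (-1.31, SE 0.20). Apoptosis regulators were higher for 12 of 30 and lower for 2, with Casp1, the inflammasome caspase, at 1.24, 0.765 and 1.41 CPM in Ctr and 5.16, 7.26, 8.32 and 5.97 CPM in DNase. The 2 lower genes were Casp9, given above, and Bid, which carries the death receptor signal to mitochondria (-0.33, SE 0.089). The call of Bid ended without Ctr replicate 2 or 3 and without DNase replicate 1 or 3, and the number lower was 1 without Ctr replicate 2 or 3 and without DNase replicate 3.

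Fibroblast and matrix genes were mostly not called, with 7 of 45 higher, a share near the 13.1% of all genes, 2 lower and a median log2 fold change of 0.14. Adam8, a leukocyte metalloprotease gene, and Mmp14, a membrane collagenase gene, were higher, with 21.3, 18.6 and 19.2 CPM in Ctr and 35.9, 52.99, 45.6 and 44.8 CPM in DNase for Mmp14. Tgfb1, the main fibrogenic cytokine, rose by 0.58 (SE 0.12, adjusted p = 0.00659 in edgeR) on the log2 scale. Col5a2, a fibrillar collagen chain gene, was lower at 43.2, 41.7 and 37.6 CPM in Ctr and 13.9, 17.2, 9.51 and 10.2 CPM in DNase (-1.69, SE 0.19), and the other lower gene was Postn, periostin, with 21.9, 9.09 and 14.3 and 8.81, 8.32, 4.19 and 3.37 CPM. Without DNase replicate 2 the higher count was 4, and the call of Postn ended without Ctr replicate 1 or 3 and without DNase replicate 3 or 4. Of 29 immediate early and heat shock genes 6 were higher and 1 lower, against 13.1% and 8.61% of all genes, with Atf3, a stress-induced transcription factor, at 3.61, 2.84 and 1.74 CPM in Ctr and 8.81, 6.01, 6.56 and 7.49 CPM in DNase. The lower count of this list was 0 without Ctr replicate 1 or DNase replicate 2 and 2 without Ctr replicate 2, and with 10 or 11 libraries in 1 fit the list had 1 higher and 0 lower genes. In the Lpr kidneys Atf3 ranged from 3.88 to 179.7 CPM. Of 20 clock genes 3 were higher, again near the share of all genes, and 0 lower, with 7 higher without Ctr replicate 2 and 5 without DNase replicate 1. Of 11 renin-angiotensin genes 2 were higher and 1 lower, numbers near the shares of all genes, the first including Agt, angiotensinogen (0.59, SE 0.13). All 3 calls ended without Ctr replicate 1, which left 0 higher and 0 lower. Ren1, renin, was not called, at 61.9, 82.3 and 49.8 CPM in Ctr and 156, 92.01, 99.7 and 59.8 CPM in DNase.

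The largest increases, with predicted genes and antigen receptor segments left out, were in part genes that Ctr kidneys barely expressed. Mybphl, which encodes a myosin-binding protein (chr3:108364911-108380057, GRCm38), was listed at 0 in all 3 Ctr kidneys and at 15.03, 10.7, 8.35 and 11.2 CPM in DNase, at least 128-fold higher against a floor of 3 counts per library. AI506816, a non-coding transcript of chromosome 5, went from at most 0.0638 CPM to 9.23, 8.64, 8.88 and 7.54 CPM, at least 96.5-fold. Clec4e, the lectin Mincle that senses mycobacterial glycolipid and dead cells, rose at least 67.2-fold, from at most 0.0638 CPM to 2.48, 6.8, 6.63 and 7.96 CPM. Cd300e, an activating receptor of monocytes, had 0.216, 0 and 0 CPM in Ctr and 3.12, 6.53, 14.7 and 5.43 CPM in DNase. In the untreated Lpr kidneys Mybphl was counted at 5.96, 5.73, 6.44 and 10.4 CPM and AI506816 at 6.33, 8.33, 8.84 and 10.2 CPM.

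The largest decreases were genes almost absent from every treated kidney. Trim12a, a relative of the retroviral restriction factor TRIM5 (chr7:104299894-104315466, GRCm38), was counted at 6.63, 6.54 and 9.95 CPM in Ctr and 0, 0, 0.0252 and 0 CPM in DNase, at least 97-fold lower. LOC68395, named in the table only by this identifier, went from 3.59, 7.97 and 3.57 CPM to at most 0.0271 CPM, at least 63.4-fold lower. Serpina1d, an alpha-1-antitrypsin gene (chr12:103763594-103773592), had 52.7, 91.1 and 23.97 CPM in Ctr and 0.335, 0.1897, 0.202 and 0.129 CPM in DNase, and Ttr, the thyroxine carrier transthyretin, 37.7, 42.2 and 44.8 and 0.558, 0.732, 0.454 and 0.3605 CPM. Kcnj12, a potassium channel gene, had 5.23, 5.39 and 4.46 CPM in Ctr and 0.0558, 0.0813, 0.202 and 0.232 CPM in DNase, and Rpl21, a ribosomal protein gene, 76.8, 93.2 and 98.5 and 2.203, 1.95, 2.37 and 2.01 CPM. In the Lpr kidneys Trim12a was at most 0.0566 CPM, Serpina1d at most 0.283 CPM and Rpl21 between 1.797 and 5.14 CPM.

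Some lower genes have a near-identical relative that moved the other way, and of the 6 largest decreases Trim12a and Serpina1d did. The pairs given here were chosen after their values were seen. A copy was counted here when at least 95% of bases over at least 70% of a gene's longest reading frame matched another gene's transcript. Of 14313 tested genes with a reading frame 7.53% had such a copy, against 20.1% of 144 genes lower by more than 4-fold, 9.62% of 603 genes higher by more than 4-fold, 8.43% of small decreases and 6.02% of small increases. Genes given above that had such a copy include Acaa1a, Cox7c, Ndufa12, S100a11, Isg15 and Oas1a, so their counts are uncertain too. Eno1, the glycolytic enolase, was counted at 967, 784 and 984 CPM in Ctr and 549, 477, 568 and 556 CPM in DNase (-0.76, SE 0.11), while Eno1b, which is 99.4% identical, had 11.97, 9.09 and 12.02 CPM in Ctr and 174, 159.8, 193 and 185 CPM in DNase (4.01, SE 0.13). The sum of the pair was 793 to 996 CPM in Ctr and 637 to 760.4 CPM in DNase. Rpl34 went from 144, 153 and 134 CPM to 12.1, 10.8, 15.8 and 14.2 CPM, and its pseudogene Rpl34-ps1 from 15.4, 10.7 and 8.9 CPM to 93.8, 88.2, 122 and 115 CPM, with sums of 142 to 164 CPM and 98.97 to 138 CPM.

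Serpina1b, 96.7% identical to Serpina1d, rose from 1.16, 0.414 and 1.23 CPM to 22, 14.98, 12.1 and 17.5 CPM, but the sum of these 2 stayed lower, at 25.2 to 91.5 CPM in Ctr and 12.3 to 22.3 CPM in DNase. The other tested relatives of Serpina1d did not move one way: Serpina1e rose (log2 fold change 2.68), Serpina1c fell (-3.59) and Serpina1a was not called (-1.11, adjusted p = 0.0664 in edgeR). Trim12c, 96.4% identical to Trim12a, rose from 8.13 to 10.5 CPM to 24.3 to 31.96 CPM, while Trim5, 97.1% identical to Trim12a, fell from 0.701 to 1.83 CPM to 0.101 to 0.139 CPM (-3.31, SE 0.42). The sum of these 3 genes was 15.4 to 22.3 CPM in Ctr and 24.4 to 32.1 CPM in DNase. The alpha-globin genes Hba-a1 and Hba-a2, 99.8% identical, had log2 fold changes of 1.16 (SE 0.35) and -3.47 (SE 0.56), and the call of Hba-a1 ended without Ctr replicate 2 or 3 and without DNase replicate 1, 3 or 4. Of 77 cytosolic ribosomal protein genes 12 were lower and 0 higher, against 8.61% and 13.1% of all genes, with a median of 0.04. The lower ones included Rpl21 with 59 copies, Rpl29 with 27 and Rpl26 with 6. Reads of a pair can be assigned to either member, so the direction of a single member is uncertain in all of these cases, and strain differences in sequence and changes in expression cannot be told apart from counts.

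**Figure D5:**
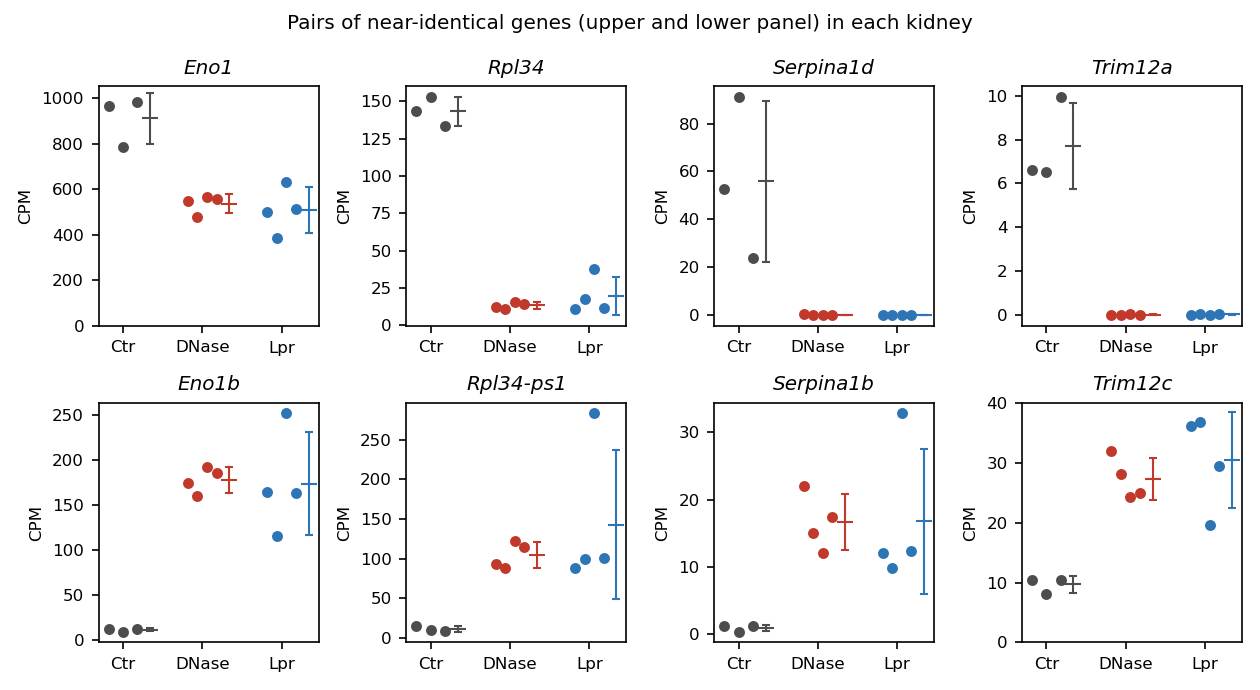
Levels in CPM of 4 pairs of near-identical genes in each Ctr (grey), DNase (red) and Lpr (blue) kidney, 1 member above and the other below, with group mean and SD to the right. In each pair the upper gene is lower and the lower gene is higher in DNase than in Ctr kidneys, and the Lpr kidneys lie on the side of the DNase kidneys.

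Large increases were often next to each other on the chromosome. Of 660 such genes with a position 222 (33.6%) had a neighbouring tested gene that was also higher by more than 4-fold, while 7.98% of all 15229 positioned genes had such a neighbour. For large decreases the shares were 15.3% of 196 and 2.5%. The longest runs held 8 Cd300 family genes of myeloid cells at chr11:114890041-115062177, 7 genes of the Ms4a cluster at chr19:11321039-11531256 and 7 Clec4 lectin genes at chr6:122921848-123289870 (GRCm38). These families arose by duplication and are expressed in leukocytes, so their members are not independent observations.

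Small changes are given by the lowest p, a choice that favours genes whose kidneys lie close together within a group. Among increases of at most 2-fold, Cd47, the signal that restrains phagocytosis, was counted at 38.5, 42.5 and 43.6 CPM in the Ctr kidneys and 74.1, 79.1, 74.7 and 76.2 CPM in the DNase kidneys (0.87, SE 0.0733, adjusted p = 4.53e-05 in edgeR). Tnip1, which dampens NF-kappaB signalling, had 22.03, 20.3 and 23.4 CPM in Ctr and 38.4, 42.9, 45.1 and 41.7 CPM in DNase, and Xdh, the xanthine oxidase that makes urate, 44.2, 41.1 and 35.96 and 82.8, 84.7, 71.2 and 74.2 CPM. Arsa, a lysosomal sulfatase, had 20.9, 21.04 and 21.3 CPM in Ctr and 43.1, 40.5, 35.1 and 36.9 CPM in DNase. Pea15a, Prcp, Parp3 and Marcksl1 completed the set, with log2 fold changes of 0.81, 0.88, 0.92 and 0.99. None of these 8 had a near-identical copy.

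Among decreases of at most 2-fold, Hdac1, a histone deacetylase, was counted at 57.9, 60.7 and 59.2 CPM in Ctr and 32.7, 33.5, 33.8 and 35.2 CPM in DNase (-0.81, SE 0.0663, adjusted p = 4.04e-05 in edgeR). Rbpj, the nuclear effector of Notch signalling, had 38.4, 33.4 and 37.7 CPM in Ctr and 19.02, 17.99, 18.6 and 18.1 CPM in DNase (-0.99, SE 0.0818). Slc27a1, a fatty acid transporter gene, went from 82.9, 78.5 and 86.04 CPM to 43.1, 44.5, 41.6 and 37.4 CPM, Lman2l, a cargo receptor gene of the secretory pathway, from 62.4, 68.7 and 65 CPM to 35.9, 34.5, 32.6 and 33.2 CPM, and Dhx40, a helicase gene, from 79.2, 88.01 and 84.7 CPM to 50.9, 48.2, 44.6 and 49.2 CPM. Srp9, Scoc and Tcea1 completed the set, at -0.98, -0.97 and -0.90 on the log2 scale. Of these 8 genes 5 had a near-identical copy, namely Hdac1, Rbpj, Scoc, Srp9 and Tcea1, with reading frames 98.6% to 100% identical to a pseudogene or predicted gene that was not among the tested genes.

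Genes of skeletal muscle and of epidermis were lower in treated kidneys, while few genes of fat, blood and adrenal were called, against 8.61% lower and 13.1% higher of all genes. Of 11 skeletal muscle genes 9 were lower in DNase and 1 higher, with a median log2 fold change of -2.19, and Myh1, a fast myosin, was at 16.8, 8.83 and 11.3 CPM in Ctr and 3.29, 1.76, 0.782 and 2.395 CPM in DNase. The 1 higher gene was Pvalb, given above. Without Ctr replicate 1 the lower count was 4. Epidermal genes, listed after the values were seen, were lower for 15 of 19 and higher for 0, with a summed level of 52.5 to 130.3 CPM in Ctr and 18.8 to 32.8 CPM in DNase, and Krt1, a skin keratin, at 8.33, 4.303 and 3.12 and 0.809, 0.623, 1.03 and 1.11 CPM. Adipose genes had a median of -2.43 and a summed level that overlapped, at 118 to 1870 CPM in Ctr and 81.3 to 496 CPM in DNase. Of 13 adipose genes 1 was called lower, Ucp1, the uncoupling protein of brown fat, at 61.6, 0.797 and 149 CPM in Ctr and 0.139, 4.36, 0 and 0.0515 CPM in DNase. That call ended without Ctr replicate 1 or 3 and without DNase replicate 3 or 4, and without Ctr replicate 2 the count was 6. Of 9 erythroid and platelet genes 1 was higher and 1 lower, the alpha-globin pair already given, and of 2 adrenal cortex genes 0 were called. Carried-over tissue in the control samples as a part of the lower genes was not tested.

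Untreated Lpr kidneys, set against the same 3 Ctr libraries, had 1169 higher and 470 lower genes, or 1748 and 1076 without Lpr replicate 3, and these comparisons share their controls, so their values are given side by side only. The median log2 fold change of the T cell receptor list was 3.40 in DNase and 3.58 in Lpr, of MHC class II 2.27 and 2.85, and of interferon-stimulated genes 1.02 and 1.86. For tubular injury genes it was 0.25 in DNase and 1.42 in Lpr, for cell cycle genes 0.94 and 1.55, and for the mitochondrial genome -0.78 and -1. Without Lpr replicate 3 the Lpr medians were 3.69 for the T cell receptor list, 2.91 for MHC class II and 2.08 for interferon-stimulated genes. They were 1.02 for tubular injury, 1.34 for cell cycle and -0.92 for the mitochondrial genome. The direct test of DNase against Lpr kidneys called 0 genes in edgeR, with a smallest adjusted p of 0.82 and 886 genes at an unadjusted p under 0.05. Without Lpr replicate 3 it called 0, with a smallest adjusted p of 0.0572 and 1618 genes at an unadjusted p under 0.05. The study did report genes higher and lower in treated than in untreated MRL/lpr kidneys, by a rule that used DESeq2 and a fold threshold. DESeq2 was not run here for this pair of groups. None of the differences between DNase and Lpr kidneys named here was therefore shown by a test run here.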

How the data were processed

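Kidney RNA of 11 mice was sequenced, 1 library per mouse, so p-values measure the spread between mice. The authors deposited whole-number read counts per gene and, from the same reads, FPKM values. The submitters' processing notes name fastp, HTSeq, DESeq2, R 3.2.0 and the build mm10, and the methods credit HTSeq with placing paired-end reads on reference genes. A separate aligner and the annotation are not given in the sources used here. Reads shared by near-identical genes can be split or dropped in such counting, and strand handling is not given in the sources used here.

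Groups came from the sample titles. The counts of 25677 genes were fitted in R 4.3.3 with edgeR 4.0.16 on the 3 Ctr and 4 DNase libraries alone (filterByExpr, TMM normalization, quasi-likelihood test, Benjamini-Hochberg adjustment over all genes tested). A gene was called at an adjusted p under 0.05, a large change had an absolute log2 fold change above 2 and a small one at most 1. Libraries held 33469858 to 38460873 counts, and the floor for a gene at 0 was 3 counts per library. Printed CPM used TMM factors over all 11 libraries. Standard errors (SE) were the absolute log2 fold change divided by the square root of the F statistic of the quasi-likelihood test. Intervals of 95% were built from these and cover the error of the fit only. Both are approximate for genes with counts near 0. The Lpr libraries stayed out of the fit, since 1 of them was biased by gene length. Untreated and treated MRL/lpr kidneys share the Ctr libraries, so their differences from Ctr stand side by side.

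Genes were named by rule: the 6 largest changes in each direction with at least 5 CPM in the higher group and no overlap between groups, the 8 small changes with the smallest p in each direction, up to 3 called genes per direction in each gene list, the genes of the study's RT-PCR, checks of the labels and the most variable member of a list. Predicted genes and antigen receptor segments were left out of the first and second of these. The members and lists were chosen with earlier results of these data known. Of 46 lists, 4 (mitochondrial genome, epidermis, GBP and IRG, and IFIT and OAS genes) and some single genes were added after values were seen. A few genes that the rule names are not reported here.

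Near-identical copies were searched with blastn 2.17.0 against mouse transcripts of GENCODE on GRCm38, at 95% identity over 70% of the reading frame. Promoter sequence came from RefSeq on GRCm38.p6. The fit was tested on simulated data. Alternatives were DESeq2 1.42.0, other scalings, filters and fits, limma 3.58.1 on logged FPKM (genes averaging 0.5 FPKM or more) with a pseudocount of 1 or 0.1, each library left out, and, chosen after seeing the data, leaving out mitochondrial genes or genes with copies.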

Additional observations from a re-analysis of the deposited data

Results flagged for a closer look

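A check for DNase kidneys that stood apart covered 164 of the printed genes and 46 gene lists. It flagged 14 genes and 0 lists, each for 1 DNase kidney far from the other 3. In these the gap to the nearest other kidney took up a larger share of the group's range than the 95% critical value of Dixon's test. Chance sets off this rule in about 1 of 20 groups of 4, and groups of 3 (Ctr) cannot be tested. That rate does not hold for the genes printed, since some were named for their spread among the DNase kidneys.

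In DNase replicate 1, several genes stood apart. Aqp2, the water channel of the collecting duct, was at 655 CPM against 228 to 279 CPM in the other 3. Cyp4a12a, the fatty acid hydroxylase, had 24.04 CPM there and 52.3 to 56.4 CPM in the others. For Cyp4b1, the monooxygenase, the value was 514 CPM and those of the others 616 to 633 CPM. H2-Q6, the class I gene, was at 1.87 CPM against 0.176 to 0.433 CPM in the other 3. Mzb1, the plasma cell gene, had 10.2 CPM there and 25.2 to 27.2 CPM in the others. For Tlr1, the Toll-like receptor, the value was 8.98 CPM and those of the others 12.8 to 13.6 CPM.

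In DNase replicate 2, 1 gene stood apart. Ucp1, the uncoupling protein of brown fat, was at 4.36 CPM against 0 to 0.139 CPM in the other 3.

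In DNase replicate 3, several genes stood apart. Cd8a, the coreceptor of cytotoxic T cells, was at 39.1 CPM against 26.4 to 28.4 CPM in the other 3. Hk3, the leukocyte hexokinase, had 17.6 CPM there and 7.54 to 8.73 CPM in the others. For Irf1, the interferon-gamma target, the value was 131 CPM and those of the others 106 to 109 CPM. ND3, the mitochondrial complex I gene, was at 10.01 CPM against 6.99 to 7.29 CPM in the other 3. Slc34a1, the phosphate transporter, had 3018 CPM there and 3697 to 3795 CPM in the others.

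LOC68395 was at 0.0271 CPM in DNase replicate 2 and Trim12a at 0.0252 CPM in DNase replicate 3, and both were listed at 0 in the other 3, so these gaps are within the floor of 3 counts.

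Among the genes named in this way, the call of Ucp1 also ended without Ctr replicate 1 or 3 and without DNase replicate 3 or 4. No explanation was tested for these values.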

How the results depend on the processing

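Counts of called genes were least stable for decreases. In place of 2107 higher and 1386 lower genes, edgeR gave 1289 and 600 with all 11 libraries in 1 fit, and leaving out 1 library gave 1696 to 2066 and 994 to 1379. limma on log2(FPKM + 1) and on log2(FPKM + 0.1) gave 787 and 776 lower genes. For changes above 4-fold, with 734 higher and 233 lower genes, limma with a pseudocount of 1 gave 155 and 35, and with 0.1 it gave 452 and 97. A pseudocount shrinks the change of low genes by construction. The number of large decreases was 365 with DESeq2, 398 without a filter on low counts, 120 with a strict filter and 116 among genes with no near-identical copy, a restriction chosen after seeing the data, and leaving out 1 library gave 653 to 767 higher and 214 to 342 lower. A threshold of 2-fold gave 1239 and 512. Replicate numbers were shared by Ctr and DNase libraries, but libraries with the same number did not deviate together (correlations -0.07, -0.24 and -0.29 of their deviations from the group mean). A fit with the replicate number as a block gave 1236 higher and 633 lower genes, and no Ctr library correlated best with the DNase library of its own number.

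Of 873 medians of gene lists under the alternatives, 801 moved by less than the spread between libraries, 61 moved by more and 11 changed sign. The sign changes were near 0. With libraries scaled by totals the medians of podocyte and P450 genes were 0.0479 and 0.0436. Under limma on log2(FPKM + 0.1) podocyte, P450 and glycolysis genes had 0.0454, 0.0464 and 0.0459 and adrenal genes 0.124, and under log2(FPKM + 1) P450 and adrenal genes had 0.041 and 0.0968. Adrenal genes had 0.0851 and renin-angiotensin genes -0.0244 with the strict filter, and adrenal genes 0.00152 in the fit of 10 libraries.

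Scaling by totals moved the medians of interferon-stimulated genes to 1.12, of the IFIT and OAS set to 0.91, of Toll-like receptor genes to 0.54, of unfolded protein response genes to 0.31 and of apoptosis regulators to 0.37. Under limma on log2(FPKM + 1) the T cell receptor list had 1.72, checkpoints 1.43, cytotoxic genes 1.06, B cells 1.49, plasma cells 1.24, macrophages 2.32, dendritic cells 0.81, interferon-stimulated genes 0.93, chemokine ligands 1.06, receptors 1.03, adhesion 1.23, the RT-PCR genes 0.41, cell cycle 0.44, unfolded protein response 0.33, lymphoid stroma 2.28, muscle -0.99, epidermis -1.04, GBP and IRG genes 2.54 and the IFIT and OAS set 0.54. With a pseudocount of 0.1 checkpoints had 2.72, Toll-like receptor genes 0.56 and unfolded protein response genes 0.33. Without a filter and with DESeq2, chemokine ligands had 1.25 and 1.25, lymphoid stroma 3.10 and 3.10 and the RT-PCR genes 1.52 and 1.53. The RT-PCR genes had 0.42 and cytotoxic genes 3.17 with the strict filter, and the RT-PCR genes 0.79 in both joint fits (0.794 with 11 libraries, 0.791 with 10).

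Leaving out 1 library gave medians of 2.59 to 3.28 for cytotoxic genes, 1.49 to 1.79 for dendritic cells, 2.21 to 2.47 for MHC class II, 0.97 to 1.17 for interferon-stimulated genes, 1.69 to 2.29 for chemokine receptors, 2.10 to 2.49 for adhesion, 0.41 to 0.55 for Toll-like receptor genes, 0.54 to 1.04 for the RT-PCR genes, -0.0396 to 0.156 for cholesterol synthesis, 0.17 to 0.36 for clock genes, 0.66 to 1.28 for cell cycle, 0.15 to 0.31 for the unfolded protein response, 2.31 to 2.74 for lymphoid stroma, -0.14 to 0.64 for erythroid genes, -0.87 to -0.62 for the mitochondrial genome, 3.19 to 3.76 for GBP and IRG genes and 0.71 to 0.86 for the IFIT and OAS set. Of 232 called genes examined singly, 150 were called in the same direction under all 19 alternatives that gave a value and 0 changed direction under any of them. The fit with all 11 libraries ended 67 of these calls, the fit of 10 libraries without Lpr replicate 3 ended 19, and the replicate block ended 53. Counts within lists moved most with all 11 libraries in 1 fit, where 11 Toll-like receptor, 10 cell cycle, 4 unfolded protein response and 5 apoptosis genes were higher, and 3 proximal tubule, 4 fatty acid oxidation, 0 distal tubule and 0 nuclear oxidative phosphorylation genes were lower. The causes of these moves were not tested. Beyond depth, 3 controls against 4 treated mice limit what the fit could call.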

Other observations

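Some genes outside the lists were singled out after their values were seen. Igf2, an insulin-like growth factor of fetal and stromal cells, was at 190, 115 and 75.4 CPM in the Ctr kidneys, 18.6, 31.5, 10.8 and 36.2 CPM in the DNase kidneys and 7.03 to 15.7 CPM in the Lpr kidneys. The groups did not overlap, and its log2 fold change in DNase was -2.38 (SE 0.41, edgeR adjusted p = 0.00294). The predicted gene Gm49394 is 100% identical to it over 96% of the reading frame, so its count is uncertain. Fgb, encoding the beta chain of fibrinogen, was at 4.18, 4.02 and 3.48 CPM in Ctr and 0.0252 to 0.258 CPM in DNase, with a log2 fold change of -5.45 (SE 0.59, edgeR adjusted p = 0.000183).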
